A study of Mus musculus with 4 samples.

Results

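The genes described here encode the proteins of the cytosolic ribosome, together with their close paralogs, in mouse splenic CD8 T cells. They were taken by symbol, as Rpl or Rps followed by a digit plus Rpsa and the stalk genes Rplp0 to Rplp2, with pseudogenes and the S6 kinases left out, and only where a probe set named that gene alone. This gave 50 genes of the 18193 with such a probe set: 20 of the large subunit, 2 of its stalk, 21 of the small subunit, 6 paralogs and the gene of 1 ribosome binding protein. The brightest single-gene probe set over the arrays stood for each gene.

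The tested cells were CD44+CD122+Ly49+ CD8 cells, which the submitters call CD8 Treg, and they were set against CD44+CD122+Ly49- CD8 cells, the conventional memory type. All cells came from the spleen of wild-type mice on the B6 background, so Ly49 staining is the only labelled difference between the groups. Total RNA of sorted cells was hybridised to 4 Affymetrix arrays, 2 for each group. Whether the arrays of a group came from separate mice is not in the labels, so the p-values reflect the spread of these samples alone, and that spread may be technical. Age and sex are not given in the sources used here.

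A cytosolic ribosome is built from a small subunit, which reads the messenger RNA, and a large subunit, which forms the peptide bond and carries a protruding stalk that recruits elongation factors. Most of its proteins are needed in every ribosome, and their mRNAs are among the most abundant in lymphocytes. Many of these mRNAs begin with a run of pyrimidines, the TOP motif, through which mTORC1 and the binding protein Larp1 set how strongly they are translated. A few ribosomal proteins have a paralog with a restricted tissue distribution, such as Rpl39l, a relative of Rpl39 that is best known in mice from male germ cells.

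The start sites of some of these genes are shown because a pyrimidine run at the transcript start is a feature used to recognise this class of genes. Each window spans 15 bases before and 15 bases from the transcript start given by RefSeq on GRCm38.p6, written 5′ to 3′ on the gene's own strand, and capitals mark the letters CTTTC. Rpl39l lies at chr16:10170213-10170242 on the plus strand, Rpl39 at chrX:37085208-37085237 on the minus strand, Rps27 at chr3:90213634-90213663 on the minus strand and Rplp2 at chr7:141447636-141447665 on the plus strand. Rpl39l and its parent show the pair whose paralog was called, and Rps27 and Rplp2 show the letters in a small subunit and a stalk gene. In Rpl39l the marked letters end before the listed start, so a transcript from that start would not carry them. Rpl39 has no marked letters, but a pyrimidine run without CTTTC lies after its start. The windows therefore do not show a TOP motif in the paralog that its parent lacks.
Rpl39l: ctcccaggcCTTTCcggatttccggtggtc
Rpl39: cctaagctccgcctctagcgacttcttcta
Rps27: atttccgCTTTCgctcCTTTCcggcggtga
Rplp2: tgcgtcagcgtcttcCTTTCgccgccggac

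A promoter was listed for 44 of the 50 genes. CTTTC on the gene's strand within 20 bases of the start was found in 12 of the 44 (27.3%), against 5.94% of 17492 protein-coding genes, while on the opposite strand it was found in 2 of the 44 (4.55%) against 4.91%. The 12 were Rpl4, Rpl7a, Rpl12, Rpl13a, Rpl27a, Rpl35, Rpl38, Rpl39l, Rplp2, Rps10, Rps26 and Rps27. The ETS core CCGGAAG, searched on both strands from 250 bases before to 50 after the start, was found in 21 of the 44 (47.7%), against 12.9% of the protein-coding genes. The YY1 core GCCATNTT was found over the same span in 7 of the 44 (15.9%), against 7.46%. None of these motifs contains another, and a match is a description of the letters, not a site.

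The arrays had medians of 188 to 190 intensity units, and log2 values of any pair correlated at 0.996 to 0.998 over probe sets. The T cell list was above the highest unspiked bacterial control (70.3 intensity units) on every array for 11 of 11 measured genes, with a summed intensity of 152758 to 152979 in Ly49+ cells and 154959 to 155150 in Ly49- cells. By the same limma test as below, 10 of 14 genes of the myeloid list were higher and 2 lower, with 12 of the 14 above the control on every array and a sum of 21867 to 23830 in Ly49+ cells against 14802 to 14908 in Ly49- cells. In the NK cell list 4 of 11 genes (Fcer1g, Klrk1, Cd244a and Tyrobp) were higher and 0 lower, with a sum of 81050 to 82206 in Ly49+ cells and 76522 to 77331 in Ly49- cells. Of that list, Gzma had a log2 difference of -0.95 (limma adjusted p of 0.051), and Ncr1 was under the control level in both groups. Of the cell cycle list, 13 of 19 genes were lower, with a median log2 difference of -0.39. The ratio of 3′ to 5′ probe sets of Actb was 1.26 and 1.29 in Ly49+ cells and 1.37 and 1.34 in Ly49- cells. The part of any of these differences in the results below was not tested.

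Of the 50 ribosomal protein genes, 1 was called lower in Ly49+ cells and 0 were called higher, and the other 49 did not pass the test (limma on log2 intensity plus 16, Benjamini-Hochberg adjusted p under 0.05 over all genes). The background of the comparison was 728 of 18193 genes called (4.0%), with 376 lower (2.07%) and 352 higher (1.93%). The 1 gene was the paralog Rpl39l. At an unadjusted p under 0.05 the count among the members was likewise 1, against 3284 of all genes (18.1%). The median log2 difference of the members, Ly49+ minus Ly49-, was -0.003, and that of all genes was -0.04. The member median was -0.031 over the 27 members left without probe sets ending in _x_at, _s_at or _a_at, and 0.008 without Ly49- array 1, so its sign and its distance from the median of all genes rest on the probe sets and arrays used.

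Most members had small differences. The log2 difference was within 0.05 of 0 for 44 of 50 members (88.0%), against 33.3% of all genes, and within 0.1 for 47 (94.0%), against 58.1%. Both counts, and the next one, include Rps16 and Rpl37, whose chosen probe sets were under the control level. At that level the added 16 shrinks a difference. For 46 members (92.0%) the whole 95% interval of the difference stayed within a 1.2-fold change either way, against 45.6% of all genes. The 4 whose interval reached further were Rpl39l, Rps4l, Rpl3l and Rpl39. The median intensity was 29006 for the members and 353 for all genes, so these shares compare genes of unlike brightness. Shares for other genes of like brightness are given below. The arrays of the groups did not overlap for 4 members that were higher (Rpl27a, Rps2, Rps3a1 and Rpl22) and 14 that were lower, while 32 overlapped. Among all genes 48.4% were without overlap, 13.2% with Ly49+ cells higher and 35.2% with Ly49+ cells lower. The intensities are relative to the rest of each array, so they do not show how many ribosomes a cell holds, and in bulk samples fewer cells of a type and less RNA per cell cannot be told apart.

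**Figure D1:**
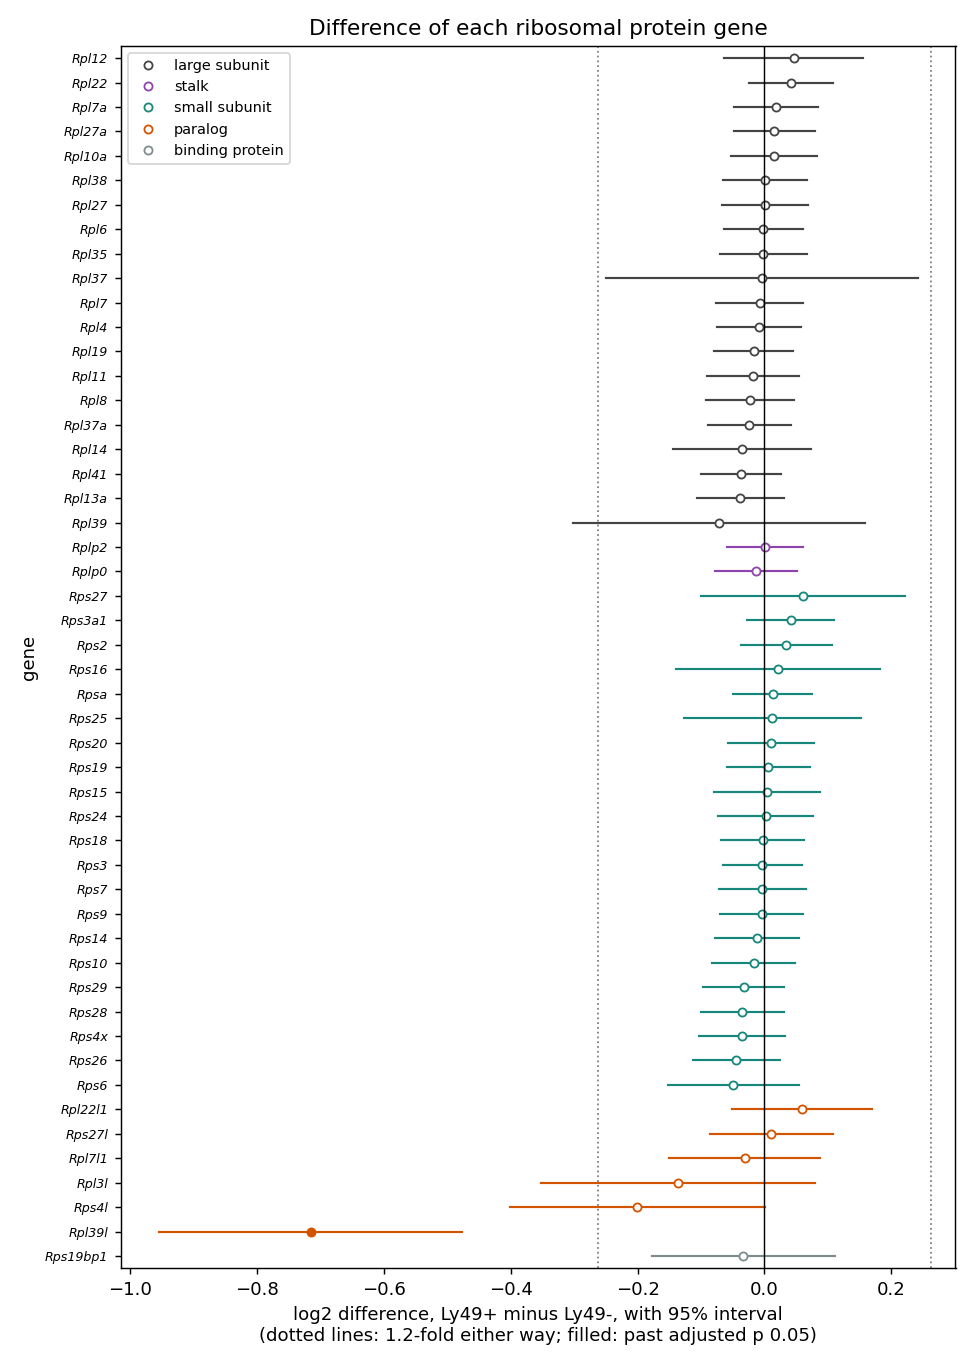
The log2 difference of each of the 50 ribosomal protein genes, Ly49+ minus Ly49-, with its 95% limma interval. Rpl39l lies at -0.72, and 44 of the members lie within 0.05 of 0.

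Most members were among the brightest probe sets of the array, and 25 were within the brightest 100. The highest intensity of any probe set on an array was 41781 to 43147, close to the values of the brightest members, and whether signals this near the top of the scale are compressed was not tested. Small differences of these probe sets are therefore no sign that the mRNAs are stable. Dimmer probe sets of the same gene at times differed more, such as Rpl13a at -0.20 for one with a mean of 10055, against -0.04 for the chosen one with a mean of 33106. A mean intensity over 20000 was reached by 35 members, whose differences ran from -0.04 to 0.04 with a median of -0.003 and whose intervals all stayed within 1.2-fold. The 76 genes of that brightness outside the 50 include Fau and Mrpl52, a gene of the mitochondrial ribosome. They also held no call (0% called) and had a median of 0.001, with 4 at an unadjusted p under 0.05. Of these 76, 97.4% lay within 0.1 and 82.9% within 0.05, and 98.7% had an interval within 1.2-fold. The 15 dimmer members had a median of -0.03 and included Rpl39l.

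The differences between groups are given beside those between arrays of 1 group. The first compare means of 2 arrays and the second single arrays, so their sizes are unlike measures. The median absolute difference between groups was 0.0172 over the members, while that between arrays of a group was 0.0132 in Ly49+ cells and 0.0395 in Ly49- cells. The group difference exceeded both for 10 members, of which Rpl22 was higher in Ly49+ cells and the rest were lower. The same count was not made over all genes, so whether 10 is many or few cannot be said. Of the 35 bright members, 21 and 11 lay above their own mean on the Ly49+ arrays 1 and 2, and 32 and 10 on the Ly49- arrays 1 and 2, so more of them lay high on the first array of each group.

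**Figure D2:**
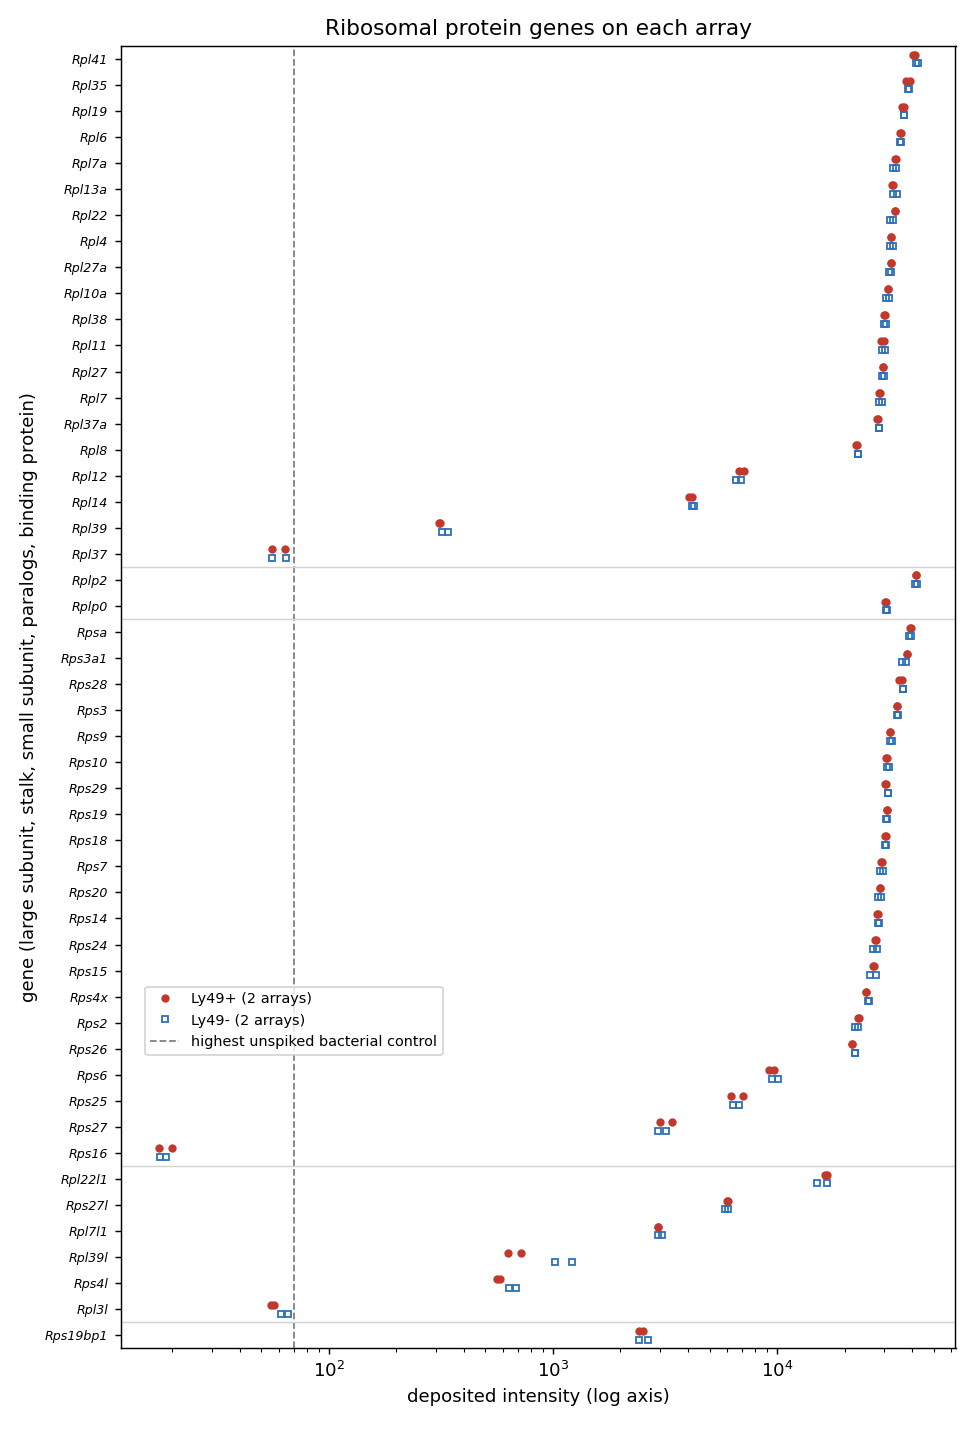
Deposited intensity (log axis) of each ribosomal protein gene on each of the 4 arrays, with the Ly49+ arrays as filled points above the Ly49- arrays as open squares in each row and a dashed line at the highest unspiked control. The widest gap between the groups is that of Rpl39l, with 630 and 718 in Ly49+ cells and 1024 and 1214 in Ly49- cells.

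Rpl39l fell 1.64-fold in Ly49+ cells. Its single probe set read 630 and 718 intensity units in Ly49+ cells (674 ± 62.5) and 1024 and 1214 in Ly49- cells (1119 ± 134.8, mean ± SD, n = 2 each). Both Ly49+ arrays lay below both Ly49- arrays. The log2 difference was -0.72 with a standard error of 0.11 and a 95% interval of -0.95 to -0.48, and the limma adjusted p was 0.0076. Only 1 probe set on the array names the gene, so no second probe set repeats the measurement. Leaving out Ly49+ array 1, Ly49- array 1 or Ly49- array 2 ended the call, with limma adjusted p of 0.0567, 0.0523 and 0.112, while the log2 difference stayed between -0.84 and -0.59. Over all alternatives run the limma adjusted p lay between 2.95e-05 and 0.112. The cell cycle and myeloid lists moved between the same arrays, and their part in this difference was not tested.

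Rpl39, the parent gene of Rpl39l and a small protein near the exit tunnel of the large subunit, did not pass the test. Its single-gene probe set was dim, with 311 and 315 in Ly49+ cells and 339 and 320 in Ly49- cells and a log2 difference of -0.07. A brighter probe set that also names another gene read 24136 and 24300 in Ly49+ cells against 24703 and 22711 in Ly49- cells, a difference of 0.03. The Ly49+ values of the bright probe set lay between the Ly49- values, so only the dim probe set separated the groups.

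The other paralogs did not pass the test. Rps4l, a relative of the X-linked small subunit gene Rps4x, read 561 and 581 in Ly49+ cells and 636 and 682 in Ly49- cells, a log2 difference of -0.20 with an interval of -0.40 to 0.001 and a limma adjusted p of 0.28. Its arrays did not overlap. Rps4x read 24807 and 25027 in Ly49+ cells against 25721 and 25367 in Ly49- cells, a difference of -0.04.

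Rpl22l1 and Rpl22 are a pair in which, in mice, Rpl22 is needed for αβ T cell development and holds the paralog's expression down. Rpl22l1 read 16745 and 16299 in Ly49+ cells and 16677 and 15072 in Ly49- cells, a log2 difference of 0.06. Rpl22 read 33477 and 33464 in Ly49+ cells and 32984 and 32067 in Ly49- cells, a difference of 0.04. The arrays of Rpl22l1 overlapped, those of Rpl22 did not, and neither gene passed the test (limma adjusted p of 0.58 and 0.51). The other single-gene probe sets of Rpl22 both went the opposite way without overlap. A bright one read 26814 and 26622 in Ly49+ cells and 26833 and 27685 in Ly49- cells, a difference of -0.03. A dimmer one read 3019 and 2984 in Ly49+ cells and 3406 and 3206 in Ly49- cells, a difference of -0.14 (limma adjusted p of 0.37 over all probe sets), so the probe sets of Rpl22 give no common direction.

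Rps27l, a relative of Rps27 known as a p53 target, read 5983 and 6033 in Ly49+ cells and 6046 and 5880 in Ly49- cells, a log2 difference of 0.01. Rps27 itself read 3399 and 3014 in Ly49+ cells and 3199 and 2941 in Ly49- cells, a difference of 0.06. Rpl7l1, a relative of the large subunit gene Rpl7, read 2934 and 2951 in Ly49+ cells and 2952 and 3064 in Ly49- cells, a difference of -0.03, and Rpl7 read 28847 and 28617 in Ly49+ cells and 29306 and 28455 in Ly49- cells, a difference of -0.01. Of these chosen probe sets, those of Rps27l, Rps27 and Rpl7 overlapped between the groups, and both Ly49+ arrays of Rpl7l1 lay just under both Ly49- arrays. The other probe sets of Rps27l and Rps27 kept the groups apart with Ly49+ cells higher in value, and none passed the test. For Rps27l one read 2076 and 2122 in Ly49+ cells and 1958 and 2035 in Ly49- cells, a difference of 0.07, and another 4618 and 4527 in Ly49+ cells and 4409 and 4391 in Ly49- cells, a difference of 0.06. For Rps27 a bright one that names several genes read 34430 and 33533 in Ly49+ cells and 33512 and 32808 in Ly49- cells, a difference of 0.04. Rpl3l, the striated muscle relative of Rpl3, was under the control level in both groups with 55.4 and 56.9 in Ly49+ cells and 65.4 and 61.3 in Ly49- cells, and is given no fold.

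**Figure D3:**
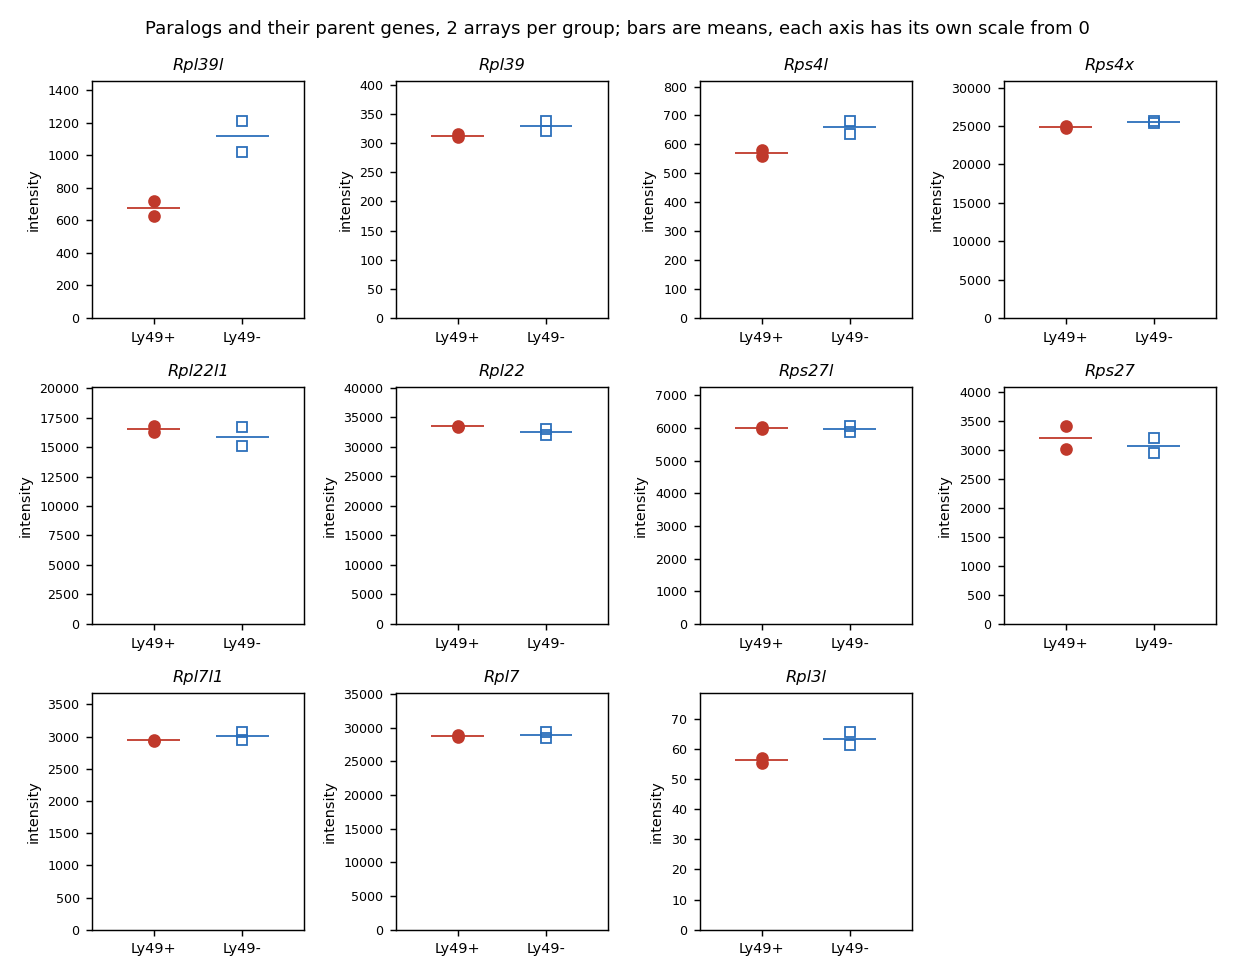
Linear intensity of the paralogs and their parent genes, with Ly49+ arrays left and Ly49- arrays right, bars at the means and each axis starting at 0 on its own scale. Relative to its own axis, Rpl39l is separated by the widest gap, and the parent genes sit at nearly equal levels in both groups.

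The 20 large subunit genes had a median log2 difference of -0.01 and ranged from -0.07 for Rpl39 to 0.05 for Rpl12, with 7 above 0 and 13 below. Rpl41, the smallest ribosomal protein, read 41432 and 40504 in Ly49+ cells and 41734 and 42344 in Ly49- cells. Rpl35 read 39242 and 37747 in Ly49+ cells and 38801 and 38271 in Ly49- cells. Both were among the 5 brightest members. Of the chosen probe sets of these 5, that of Rpl41 alone kept its Ly49+ arrays under both Ly49- arrays. The other single-gene probe sets of Rpl41 all overlapped between the groups, with differences of 0.001, 0.09 and -0.004. Rpl11, which with Rpl5 binds Mdm2 when ribosome assembly is disturbed, read 30054 and 29148 in Ly49+ cells and 30405 and 29517 in Ly49- cells, a difference of -0.02. Rpl12, at the base of the stalk, read 7145 and 6775 in Ly49+ cells and 6930 and 6550 in Ly49- cells. The groups overlapped for Rpl11 and Rpl12. Rpl5 itself was measured only by probe sets that name several genes. The brightest read 33942 and 34554 in Ly49+ cells and 33827 and 33827 in Ly49- cells, a difference of 0.02. A dimmer one read 3478 and 3267 in Ly49+ cells and 3633 and 3518 in Ly49- cells, a difference of -0.08, and another read 2767 and 2793 in Ly49+ cells and 2898 and 2759 in Ly49- cells, a difference of -0.02. The direction thus varied among the probe sets of Rpl5, and none passed the test. The other 12 large subunit genes, with group means from 4120 to 36315 in Ly49+ cells and 4223 to 36742 in Ly49- cells, differed by -0.04 to 0.02, and the smallest limma adjusted p among them was 0.57.

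Neither stalk gene passed the test. Rplp0, which anchors the stalk and is widely used as a reference gene, read 30704 and 30388 in Ly49+ cells and 31025 and 30639 in Ly49- cells, a log2 difference of -0.01. Rplp2, one of the acidic stalk proteins, read 41841 and 41571 in Ly49+ cells and 41902 and 41424 in Ly49- cells, a difference of 0.002. Both overlapped between the groups. Its partner Rplp1 was measured only by a probe set that names several genes, with 31128 and 31235 in Ly49+ cells and 31041 and 31193 in Ly49- cells.

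The 21 small subunit genes had a median log2 difference of -0.003 and ranged from -0.05 for Rps6 to 0.06 for Rps27, with 10 above 0 and 11 below. Rps6, the substrate of the S6 kinases, read 9678 and 9201 in Ly49+ cells and 10046 and 9485 in Ly49- cells, and the brightest of its shared probe sets 39213 and 39898 against 39817 and 38997. Rpsa, also known as the laminin receptor precursor, read 39749 and 39223 in Ly49+ cells and 38791 and 39453 in Ly49- cells. The groups overlapped on these probe sets. The shared probe sets of Rps6 ran from -0.16 to 0.25, so its direction varied. Some dim ones kept the groups apart, such as one with 861 and 905 in Ly49+ cells and 840 and 720 in Ly49- cells. A dim second probe set of Rpsa read 107 and 115 in Ly49+ cells and 117 and 117 in Ly49- cells, a difference of -0.06. None of these passed the test. Rps3a1, an early-assembling protein of the small subunit, read 38123 and 38027 in Ly49+ cells and 37779 and 36237 in Ly49- cells, a difference of 0.04. Rps2, near the entry of the mRNA channel, read 23210 and 22935 in Ly49+ cells and 22848 and 22202 in Ly49- cells, a difference of 0.03. Rps26, which in humans is mutated in Diamond-Blackfan anaemia, read 21568 and 21676 in Ly49+ cells and 22379 and 22205 in Ly49- cells, a difference of -0.04. These last 3 kept the groups apart without passing the test (limma adjusted p of 0.53, 0.63 and 0.50). The other 13 small subunit genes, with group means from 6622 to 35551 in Ly49+ cells and 6557 to 36409 in Ly49- cells, differed by -0.03 to 0.01, and the smallest limma adjusted p among them was 0.60.

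The chosen probe sets of Rps16, Rpl37 and Rpl3l were under the control level in both groups, and the other 47 members were above it. For Rps16 and Rpl37 some probe sets naming several genes were bright. For Rps16 the brightest read 30530 and 30358 in Ly49+ cells and 30604 and 29611 in Ly49- cells. For Rpl37 the brightest read 23139 and 21741 in Ly49+ cells and 22891 and 21098 in Ly49- cells, and the groups overlapped for both. Rps19bp1, the binding partner of Rps19 and not itself part of the ribosome, read 2516 and 2422 in Ly49+ cells and 2414 and 2645 in Ly49- cells.

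The array holds 216 probe sets that name a member or a further ribosomal protein gene. The 56 single-gene probe sets that were not chosen held no call, with differences of -0.20 to 0.36, 43 of them within 0.1 and 4 at an unadjusted p under 0.05. The 110 probe sets that name several genes, which are the only ones for 31 further symbols, also held no call, with -0.29 to 0.25, 98 within 0.1 and 3 at an unadjusted p under 0.05 (limma over 45037 probe sets, of which 1.19% were called). The 4 belong to Rpl13a, with 2 of them, Rpl22 and Rps20, and the 3 name Rpl9, Rpl21 and Rpl31 with other genes. All but that of Rps20 were lower in value in Ly49+ cells. The share of all 45037 probe sets at an unadjusted p under 0.05 was not counted. Whether 4 and 3 are many or few therefore cannot be said. Over 20000 intensity units, 143 probe sets ranged from -0.10 to 0.05, while 34 probe sets between the control level and 2000 ranged from -0.72 to 0.36.

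**Figure D4:**
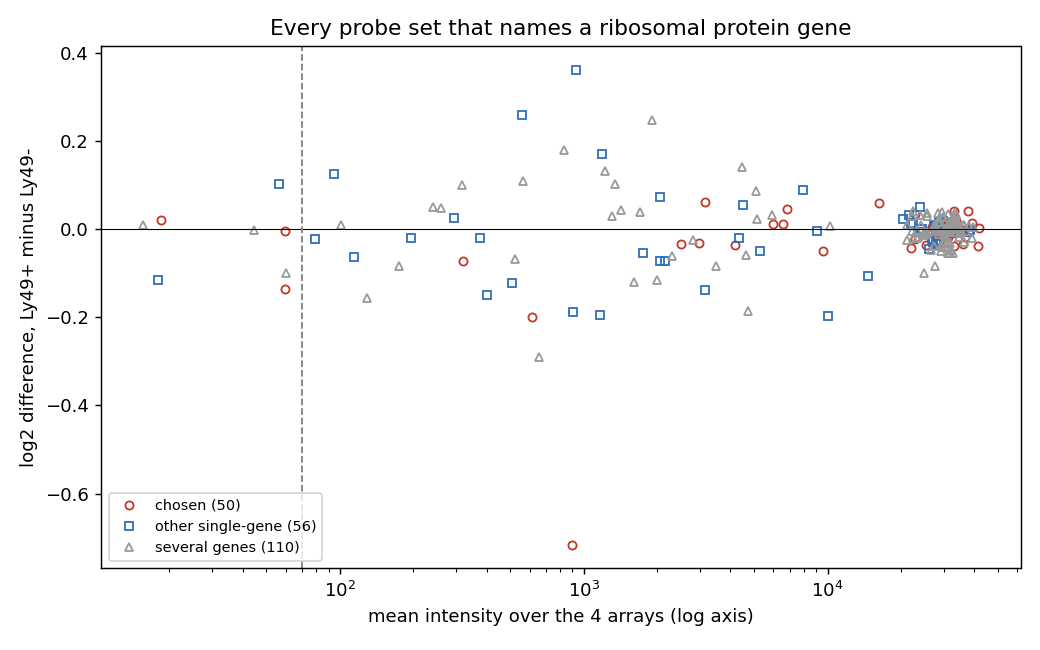
The log2 difference of every probe set that names a ribosomal protein gene, Ly49+ minus Ly49-, against its mean intensity on a log axis, with a dashed line at the highest unspiked control. The differences span -0.72 to 0.36 between the control level and 2000, and -0.10 to 0.05 over 20000; the 8 probe sets at or under the control level span -0.14 to 0.10.

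Of the mitochondrial ribosomal proteins, which translate the mitochondrial genome, 0 of 76 passed the limma test in either direction, 17 had an unadjusted p under 0.05 and the median log2 difference was -0.08. The arrays of Ly49+ cells lay below those of Ly49- cells for 54 of the 76, while this was so for 35.2% of all genes, and 18.1% of all genes had an unadjusted p under 0.05. Mrpl28 read 2423 and 2423 in Ly49+ cells and 2693 and 2830 in Ly49- cells, a difference of -0.19 with a limma adjusted p of 0.11.

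Of 56 genes of ribosome biogenesis and RNA polymerase I, 1 fell, none rose and the median was -0.08. In this list 14 had an unadjusted limma p under 0.05, beside 18.1% of all genes. The arrays of Ly49+ cells lay below those of Ly49- cells for 35 of the 56, beside 35.2% of all genes. The called gene was Pes1, a large subunit assembly factor, with 3520 and 3531 in Ly49+ cells and 4171 and 4454 in Ly49- cells. Its log2 difference was -0.29 with a limma adjusted p of 0.018, and each array left out in turn ended the call, with limma adjusted p of 0.0668 to 0.142. So did the mean of its probe sets (limma adjusted p of 0.129), its probe set of lowest mean (0.582), testing every probe set (0.0747) and dropping the trend (0.113), and over all alternatives the limma adjusted p lay between 0.0016 and 0.582. Nop58, a box C/D protein, read 4944 and 4938 in Ly49+ cells and 5595 and 5642 in Ly49- cells, a difference of -0.18 with a limma adjusted p of 0.053.

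The counts at an unadjusted p under 0.05 that follow stand beside a share of 18.1% over all genes. None of 33 measured initiation factors passed the limma test (8 at an unadjusted p under 0.05, median -0.02), and none of 11 elongation and release factors (3, median -0.02). The smallest p among the initiation factors was that of Eif2b2, a subunit of the exchange factor for eIF2, at -0.15, and among the elongation factors that of Eef2k, the kinase of Eef2, at -0.13. None of 17 other TOP mRNAs passed (0 at an unadjusted p under 0.05, median -0.002). None of 19 genes of mTORC1 and TOP mRNA control passed (3, median -0.02), with Mtor at 1923 and 1835 in Ly49+ cells and 2236 and 2111 in Ly49- cells, a difference of -0.21 with a limma adjusted p of 0.12. None of 16 chaperones and nuclear sensing genes (1, median -0.04) and none of 10 quality control genes (3, median -0.02) passed. Among 6 measured S6 kinase genes the called one, Rps6ka6, was under the control level in both groups, and Rps6kb2 read 901 and 964 in Ly49+ cells against 1044 and 1199 in Ly49- cells without passing. Fau, a small subunit protein made as a ubiquitin-like fusion, read 30748 and 30871 in Ly49+ cells and 30970 and 30927 in Ly49- cells.

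**Figure D5:**
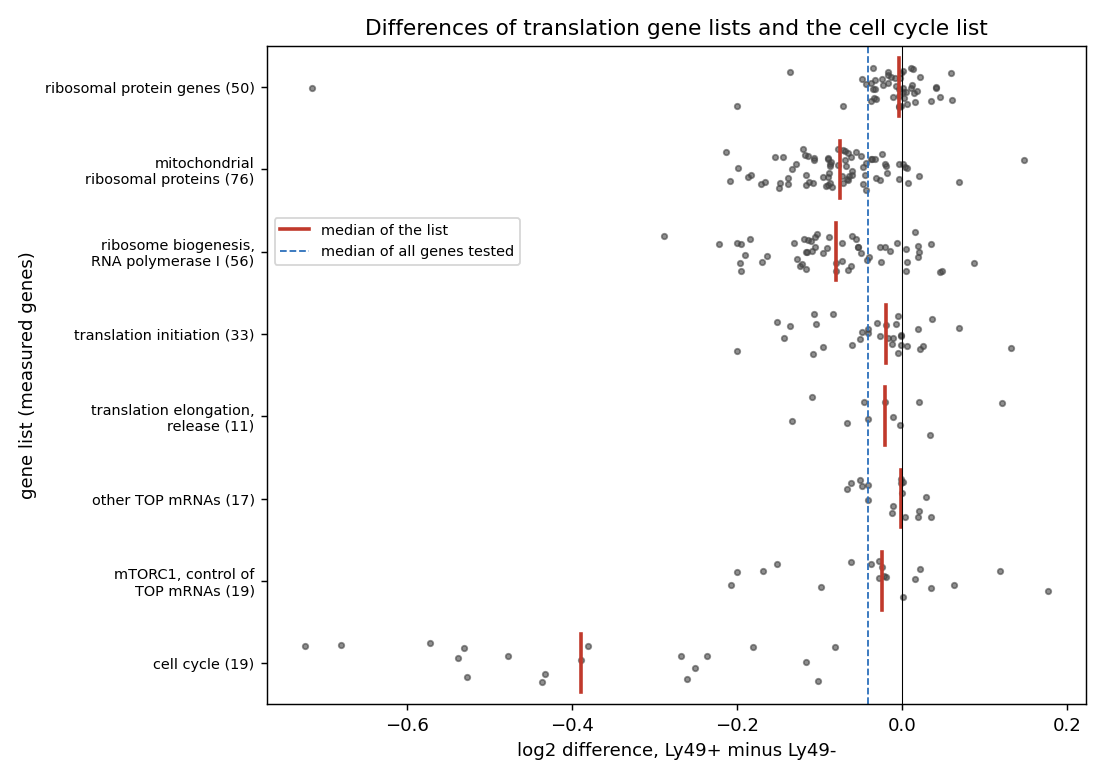
The log2 difference, Ly49+ minus Ly49-, of every measured gene in the ribosomal protein set and the other lists, with the median of each list and that of all genes as lines. The ribosomal protein median is -0.003, the mitochondrial one -0.08, and the cell cycle one -0.39.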

How the data were processed

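The authors deposited 1 linear intensity per probe set and array, from biotin-labelled cRNA per the labels' protocols; no source used here states how they were normalized, and the arrays' quartiles differ by at most 0.042 on the log2 scale. Of 45101 probe sets, 34945 name 1 gene in GEO's platform annotation, 932 several and 9160 none; 64 are controls. Each gene was represented by its probe set of highest mean log2(intensity + 16). limma 3.58.1 in R 4.3.3 (lmFit, eBayes with trend) was fitted to 18193 genes with group as the only term, and p-values were adjusted by Benjamini-Hochberg. A difference on this scale understates that of dim genes. The level of the brightest of 27 unspiked bacterial control probe sets, 70.3, served as background. Intensities of different probe sets are not compared as transcript levels. With 2 arrays a group, the number of arrays limits the precision.

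Members, lists and alternatives were chosen with earlier results of these data known. The genes named are the members past the threshold, the 6 highest and 6 lowest differences, the 5 brightest and 5 dimmest, the paralogs with their parents, and Rplp0, Rplp1, Rplp2, Rpsa, Rps6, Rpl5 and Rpl11, with up to 3 genes of smallest p of each other list. The fit was tested on simulated data. Motifs were searched in RefSeq promoters with Python 3.11.15.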

Additional observations from a re-analysis of the deposited data

How the results depend on the processing

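The count of ribosomal protein genes past the threshold was 1 under each alternative except those that left out 1 array, where it ran from 0 to 1. Their median log2 difference of -0.003 became -0.031 without probe sets ending in _x_at, _s_at or _a_at, which left 27 members, and ran from -0.02 to 0.01 with 1 array left out. The count over the other pathway lists, 2 in the reported fit, was 1 in the brighter genes alone, 0 with the mean of all probe sets, with the probe set of lowest mean, with every probe set on its own and without the trend, 5 with the robust spread, 9 at a threshold of 0.1, 12 with the replicate block and 0 to 1 with 1 array left out. Without an array, the lone sample of a group is assumed to vary like the others. The cause of these changes was not tested. The labels give the arrays shared replicate numbers without a shared animal or batch. Over 18193 genes, the difference between arrays 1 and 2 in Ly49+ cells correlated at 0.24 with that in Ly49- cells. All 14 measured immediate-early genes, a list of dissociation stress, lay higher on array 1 than on array 2 in both groups. Egr1, for instance, read 15121 and 7109 in Ly49+ cells and 14129 and 7003 in Ly49- cells. The reported fit, with group as the only term, does not account for such a shared difference. With the replicate block the member count was 1, with a limma adjusted p of 2.95e-05 for Rpl39l. Of 811 values of the named genes under the alternatives, 785 kept their side of the threshold, 18 lost the call, 8 gained it and none that was called reversed. Most named genes were not called, so most values that kept their side stayed uncalled. Among the uncalled values, 42 turned sign. Using probe sets that name several genes was an alternative chosen after seeing the data, as were all those of the other lists.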

Other observations

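Within single genes, probe sets did not always read alike. For Rpl13a, a large subunit protein often used as a reference gene, the chosen probe set read 32587 and 32743 in Ly49+ cells and 34141 and 32951 in Ly49- cells, a log2 difference of -0.04. A second one read 9421 and 9320 in Ly49+ cells and 10984 and 10496 in Ly49- cells, a difference of -0.20 with a limma adjusted p of 0.091. For Rps20 the chosen probe set differed by 0.01, while a dim one read 1116 and 971 in Ly49+ cells and 872 and 746 in Ly49- cells, a difference of 0.36 with a limma adjusted p of 0.23. All of these were picked with their values known.

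For 18S ribosomal RNA, the component that small subunit proteins bind, the 5′ probe set gave 878 and 669 in Ly49+ cells and 471 and 339 in Ly49- cells, the middle one 16035 and 15592 against 17085 and 13373, and the 3′ one 623 and 526 against 557 and 446. The preparation primes on poly(A) tails, which ribosomal RNA lacks, so these values do not measure how many ribosomes the cells hold.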
